A study of Mus musculus with 105 samples.

Results

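The B6 X chromosome of the mouse embryonic stem cell line TXdXicCast was followed gene by gene while it was being inactivated. The members were the X-linked genes outside the deleted interval of mm10 (chrX:103182257-103955531) that had at least 50 allele-specific counts, B6 plus Cast over the 3 replicates, on day 0 and on day 4 of differentiation. This held for 369 of 2538 X-linked genes outside the interval. For each member, the change is the log2 B6:Cast ratio at day 4 minus that at day 0, so that a negative value is a loss of the inactivated allele relative to the active one.

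TXdXicCast is clone A6 of the female line TX1072 (clone A3), an F1 hybrid of C57BL6/J (B6) and Cast/EiJ (Cast). Its X-inactivation center was deleted from the Cast chromosome, which leaves Xist on the B6 chromosome alone, and it was set beside TXdXicB6 (clone A1), which has the deletion on the B6 chromosome, and beside the undeleted TX1072. All groups descend from cells with a doxycycline-responsive promoter in front of Xist on B6, which TXdXicB6 has lost with its deletion, and rtTA in Rosa26, and the protocol for their differentiation names no doxycycline. RNA was sequenced before (day 0) and 1, 2, 3 and 4 days after withdrawal of 2i and LIF, with 3 replicates per line and day, and each deletion line is represented by 1 clone. The comparison asks how far, how fast and how evenly the genes of the B6 chromosome are turned down when it is the only one that can be inactivated.

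In female mammals, one of the X chromosomes of a cell is silenced during early development. The long noncoding RNA Xist is transcribed from the chromosome to be inactivated (Xi) and coats it in cis, repressive chromatin marks follow, and most genes on it are shut down while the other X chromosome (Xa) stays active. A minority of genes, such as the histone demethylase genes Kdm5c and Kdm6a, are known to stay expressed from the Xi to a degree and are called escape genes. Differentiating embryonic stem cells go through this process in culture, and where the parental chromosomes differ in sequence, a read over a SNP can be assigned to one of them.

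The deletion was made with Cas9 and pairs of guide RNAs, which cut on either side of the interval, and each pair was given with a single-stranded DNA oligo to join the ends. VM17, shown here, is the oligo that matches the first guide of each side. The sequences are shown because they mark the ends of the interval. The guides were combined in separate transfections, and which pair, with its oligo, made each clone is not given in the sources used here. Capitals in VM17 mark its bases 34 to 67, which match the first guide of each side: bases 34 to 50 are shared with Rnf12_guide1 (Rnf12 is an older name of Rlim) and bases 50 to 67 with the reverse complement of Nap1l2_guide1.
Nap1l2_guide1: gtgcacactggcagaatcgct
Nap1l2_guide2: gaatggttaatgtgcttcgtc
Rnf12_guide1: gctgaatagggttgctctac
Rnf12_guide2: ggactaagtttggcggttga
VM17: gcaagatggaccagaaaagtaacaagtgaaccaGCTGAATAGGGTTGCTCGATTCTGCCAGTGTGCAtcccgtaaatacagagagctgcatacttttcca

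The counts went with the labelled deletion. The 19 genes inside the interval other than Xist summed to 9706 B6 and 84 Cast counts over the 15 TXdXicCast libraries, a Cast share of 0.858%, and to 3 B6 and 9425 Cast counts in TXdXicB6. Of the 84 Cast counts, 75 were on 4930519F16Rik, the gene at the edge of the interval. Xist had 6, 14 and 8 B6 counts at day 0 of TXdXicCast and 6458, 3735 and 4676 at day 4, against at most 7 Cast counts in any library. Its total level rose from 0.601 ± 0.291 CPM (counts scaled to library size; SD, n = 3) at day 0 to 26.5 ± 9.98 on day 1 and 263 ± 37.4 on day 2, and it was 356 ± 56.3 and 356 ± 75.9 on days 3 and 4. In TXdXicB6 it was 555 ± 128 CPM at day 4. The 2 lines overlapped there (278 to 430 CPM in TXdXicCast, 409 to 652 in TXdXicB6), and an exact two-sided permutation test of 3 against 3 libraries gave p = 0.2, where 0.1 is the smallest p it can give. This test leaves out the replicate number. Within each replicate number TXdXicB6 was higher at day 4, at 409 against 278, 652 against 430 and 603 against 361 CPM. On day 3 it was higher in each too (371 against 300, 563 against 355 and 768 against 413 CPM). On day 1 it was lower in each (7.75 against 18.9, 15.6 against 22.7 and 23.3 against 37.8 CPM).

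Some libraries stood apart from the rest. RNA of the 3 day 0 libraries of TXdXicCast was degraded and was fragmented more mildly than that of all other deletion-line libraries, so RNA quality and day 0 of this line cannot be told apart. Values against day 1 are given for the summary counts of this line and for the genes described singly where they bear on a call. The gene lists and the comparison of the lines are given against day 0. In TXdXicB6, replicate 1 of day 0 had allele-specific reads for 5.21% of its counts and replicate 2 of day 2 for 9.57%, against 20.3% to 34.9% in the line's other libraries. In TXdXicCast this share lay between 22.9% and 34.2%, with 5280705 to 18668121 allele-specific counts per library out of 16906263 to 57920260 counts in all.

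The marker genes followed the exit from naive pluripotency. The 8 naive markers summed to 5270, 5726 and 4938 CPM at day 0 and to 546, 508 and 497 CPM at day 4, with Tfcp2l1, a naive transcription factor, the most abundant at 2365 CPM at day 0. The 5 formative markers went from between 311 and 338 CPM to 1129, 1290 and 728 CPM, and Fgf5, a marker of the formative state, from 0.134 ± 0.0351 to 127 ± 12.2 CPM. The 5 trophoblast markers summed to between 101 and 111 CPM at day 0 and to 845, 795 and 1349 CPM at day 4, nearly all of it the keratin gene Krt8 (938 ± 302 CPM). Of the other 4, Tfap2c went from 68.9 to 44.4 CPM and Cdx2 from 19.6 to 1.29 CPM. Gata3 went from 9.85 to 11.9 CPM and Elf5 from 0.241 to 0.563 CPM. Replicate 3 of day 4 stood apart from replicates 1 and 2 in several lists. It had more mesoderm and primitive streak RNA (4 markers, 199 CPM against 74.8 and 62.1), more primitive endoderm RNA (6 markers, 78.6 against 48.1 and 43.7) and less formative RNA. The primitive endoderm sum was mostly Dab2 (53.9 against 38.2 and 35.6) and Foxa2 (15.6 against 3.24 and 2.65), and Sox7 was lower (0.828 against 1.38 and 1.16). Of the formative markers, Dnmt3b (393 against 652 and 804), Dnmt3a, Pou3f1 and Otx2 were lower, while Fgf5 was not below both (133.8 against 134.4 and 113.0). Of the other lists, the 3 neural markers summed to 113, 159 and 73.5 CPM at day 4, with Nes most abundant, the 5 fibroblast markers to between 24.6 and 32.9 CPM, and the 3 two-cell-like markers to between 1.34 and 2.97 CPM. The part of these differences in the allelic ratios was not tested, but without replicate 3 of day 4 the median change of the members was -0.65, against -0.66 with it.

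Summed over the 369 members, the B6 share of the allele-specific counts fell from an even level to under 40% in 4 days. The B6 share was 50.2%, 50.1% and 49.4% in the 3 libraries of day 0 and 39.0%, 38.4% and 38.1% in those of day 4. All 3 later libraries lay below all 3 earlier ones, and the replicates within either day were less than 1 percentage point apart. The B6:Cast ratio of day 4 was 0.628 times that of day 0, that of day 3 was 0.661 times, that of day 2 was 0.739 times and that of day 1 was 0.983 times. The exact two-sided permutation test gave p = 0.1, the smallest possible, for days 2, 3 and 4, and p = 0.3 for day 1. Divided by the B6:Cast ratio of the autosomal counts of the same library, day 1 was at 0.971 times day 0, with all 3 libraries below those of day 0 (p = 0.1), and day 4 at 0.621 times. In TXdXicB6, where the Cast chromosome is inactivated, the B6 share reached 66.8%, 68.4% and 69.2% at day 4. In bulk RNA, fewer cells that silence the chromosome and a smaller loss in each cell cannot be told apart.

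**Figure D1:**
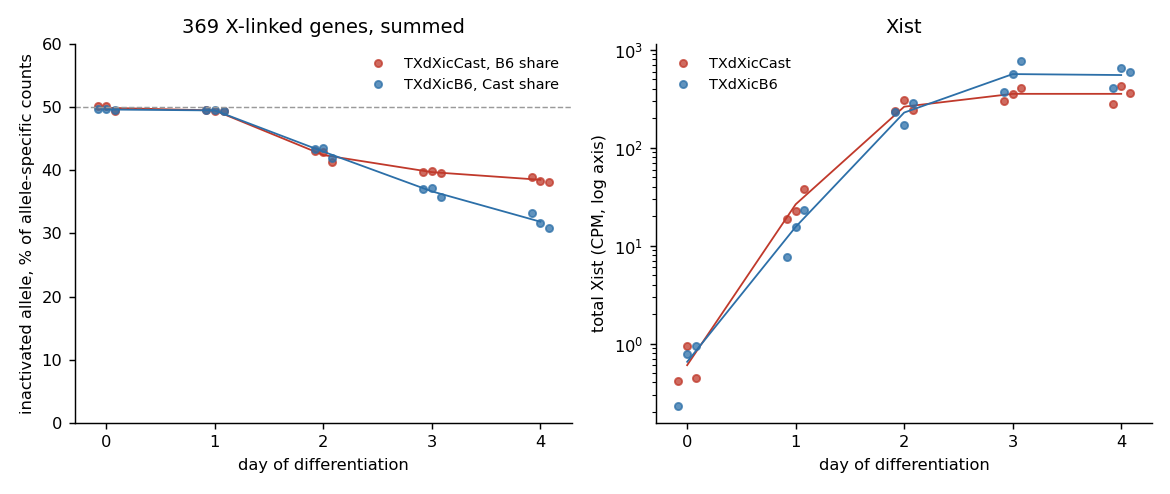
Left, share of the allele-specific counts of the 369 X-linked genes that came from the allele being inactivated (%) by day, B6 in TXdXicCast and Cast in TXdXicB6. Right, total Xist (CPM, log axis). Points are libraries (3 per line and day), lines join the means. The shares start near 50%, and by day 4 the TXdXicCast libraries sit between 38.1% and 39.0%, above those of TXdXicB6.

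Gene by gene, most members moved the same way. Of the 369 members, 229 (62.1%) were called lower at day 4, 6 were called higher and 134 were not called (edgeR quasi-likelihood test on the allele-specific counts of both alleles in a library, Benjamini-Hochberg adjusted p of at most 0.05 over all 11436 genes tested, two-sided). Across all genes tested, 14.9% were called lower and 12.9% higher, and among autosomal genes 13.3% in each direction. The median change of the members was -0.66 (quartiles -1.03 and -0.36), against a median of 0.00 (0.00167) over the 11063 autosomal genes. At day 0, 261 members had a B6 share between 40% and 60%. At day 4, 135 members had a share in that range, 187 lay between 25% and 40% and 28 between 10% and 25%. The B6 shares of the 3 day 4 libraries lay entirely below those of day 0 in 253 members and entirely above in 6, where the background over all genes was 20% and 17.9%. Against day 1 in place of day 0, 230 members were called lower and 3 higher (background 11% and 8.27% of all genes), 194 of the 230 were also lower against day 0, and the median was -0.67.

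**Figure D2:**
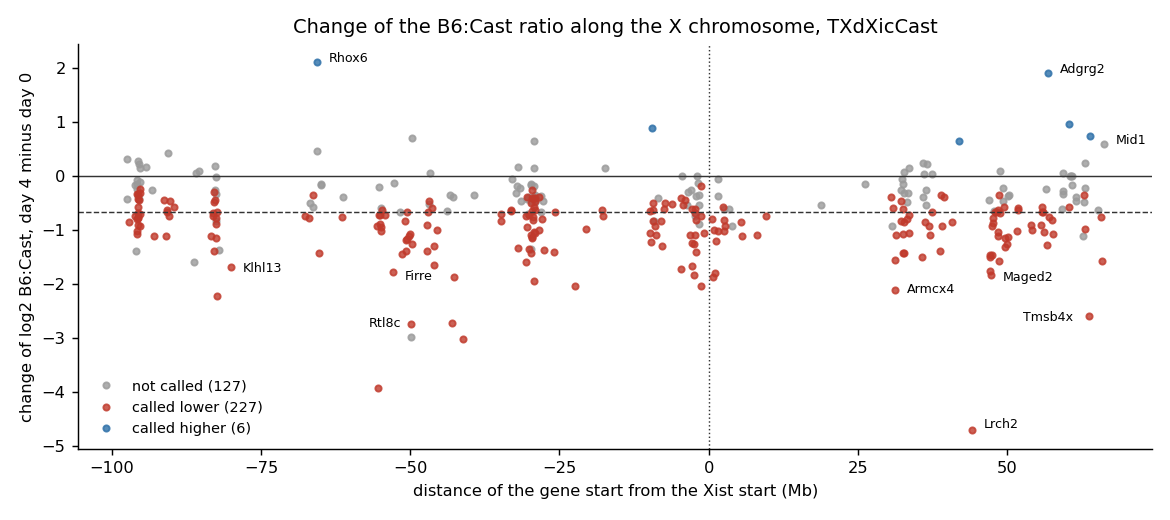
Change of the log2 B6:Cast ratio in TXdXicCast (day 4 minus day 0) against the distance of the gene start from the Xist start (Mb, negative towards the centromere). Each point is 1 of 360 members (9 with 3 or fewer counts on an allele are left out), red if called lower (227), blue if called higher (6) and grey if not called (127), and the dashed line is the median of the 360 members shown. Decreases are found along the whole chromosome, and genes with little or no change lie next to them.

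The largest decreases were found in genes of several kinds, 5 of which started with a B6 share between 74.7% and 93.8%. Among the members with a mean of at least 100 allele-specific counts in these libraries and no overlap of the replicates, the 10 largest ran from -4.70 to -1.78. Lrch2 (chrX:147470375-147554081, minus strand), which encodes a protein with leucine-rich repeats, was first. Its B6 share was 96.6%, 93.7% and 91.1% at day 0 but 38.8%, 31.9% and 30.9% at day 4. The gene thus went from nearly all B6 to mostly Cast, and its change was -4.70 ± 0.34 (SE, adjusted p = 2.53e-14 by edgeR). Its Cast counts rose by 5.15 on the log2 scale, and its B6 counts, with a change of 0.32 (adjusted p = 0.229), did not pass the test. Part of the loss lay between days 0 and 1 (-2.11), and against day 1 the change was -2.59, also called.

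Tmsb4x (chrX:167207093-167209315, minus strand), the gene of the actin-binding peptide thymosin beta 4, had B6 shares of 82.0%, 85.1% and 85.6% at day 0 and of 49.8%, 51.0% and 42.7% at day 4. Its replicates did not overlap, and it lost B6 share from 84.2% to 47.8% (change -2.58 ± 0.28, adjusted p = 9.53e-10 by edgeR). A mean of 135 counts per library could be assigned to an allele, over 4 SNPs in its exons. Tmem47, a gene of cell junctions, went from 84.9% ± 2.18 (SD, n = 3) to 58.6% ± 0.645 B6, and Firre, a long noncoding RNA gene, from 78.1% ± 2.85 to 50.2% ± 1.17. Cited1, a transcriptional co-regulator gene, went from 74.7% to 42.9%.

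Other genes of this group began with a B6 share between 40.7% and 64.0% and ended between 10.2% and 30.8%. Maged2 (chrX:150806370-150814345, minus strand), of the MAGE family, had a B6 share of 54.3%, 50.2% and 53.4% at day 0 and of 23.7%, 21.5% and 25.1% at day 4. All day 4 libraries were far below the lowest of day 0, and the change was -1.84 ± 0.10 (adjusted p = 1.23e-17 by edgeR). Armcx4, of the Armcx gene cluster, went from 56.2% to 22.7% (-2.12 ± 0.16). Sox3, which encodes a transcription factor of neural progenitors, went from 40.7% ± 9.24 to 17.9% ± 1.84 (-1.86 ± 0.34), and Rtl8c, a gene derived from a retrotransposon, from 44.5% to 10.2% (-2.74 ± 0.41), each over 1 SNP in its exons. Against day 1 Rtl8c was at -1.05 and not called (adjusted p = 0.654 by edgeR). Nexmif, a gene of neurite extension next to the deleted interval, went from 64.0% to 30.8% (-1.86 ± 0.14). In Armcx4 the log2 change of the B6 counts was -2.95 and that of the Cast counts -0.80, and in Nexmif these were -2.75 and -0.86, so that in both genes the ratio fell while the counts of both alleles fell. Against day 1 the other genes of this group were called lower too, Tmsb4x at -2.89, Sox3 at -1.99, Armcx4 at -1.81, Maged2 at -1.49, Tmem47 at -1.29, Cited1 at -1.16, Firre at -1.13 and Nexmif at -0.67. The last 4 of these changed over 1.5 times as much against day 0 as against day 1, as did Lrch2.

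**Figure D3:**
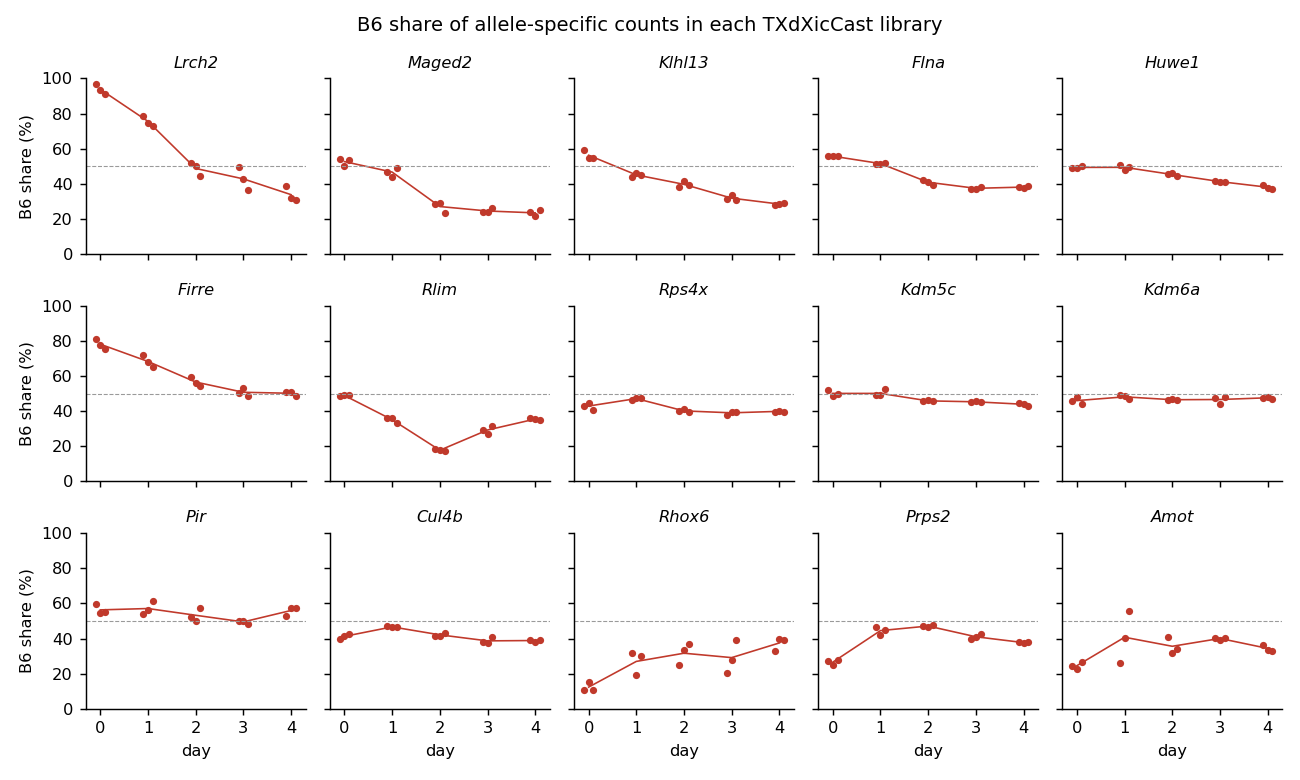
B6 share of allele-specific counts (%) by day for 15 members in TXdXicCast. Points are the 3 libraries of a day, lines join the means and the dashed line is 50%. Lrch2 falls from 93.8% to 33.8%, Kdm6a and Pir stay close to their day 0 share, Rlim is lowest on day 2 (17.8%) and Rhox6, Prps2 and Amot are higher on day 4 than on day 0.

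Klhl13 (chrX:23219271-23365082, minus strand), which encodes an adaptor of the Cul3 ubiquitin ligase, combined a large loss with deep counting, at a mean of 3940 allele-specific counts per library. Its B6 share was 59.2%, 54.7% and 54.8% at day 0, then 45.1%, 39.7% and 31.8% on average on days 1, 2 and 3, and 27.9%, 28.3% and 29.2% at day 4. The replicates of days 0 and 4 were far apart, and the change was -1.68 ± 0.07 (adjusted p = 2.12e-21 by edgeR). Against day 1 it was -1.04, also called. Both alleles of Klhl13 rose in counts, B6 by 0.65 and Cast by 2.38 on the log2 scale.

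For 9 members the fitted change rests on 3 or fewer counts of an allele on a day. Aff2, a gene of a nuclear RNA-binding protein, had 120 B6 and 2 Cast counts at day 0, a B6 share of 98.4% (95% exact Clopper-Pearson interval 94.2 to 99.8), and 141 B6 and 113 Cast counts at day 4, a share of 55.5% (49.2 to 61.7). Mageb16, of the MAGE family, had 160 B6 and 2 Cast counts at day 0 and 104 B6 and 22 Cast counts at day 4, and its share was 98.8% (95.6 to 99.9) and 82.5% (74.8 to 88.7). Both were called lower, Mageb16 not against day 1 (-1.18). The other 7 were Frmd7 and the processed pseudogenes Rps24-ps3, Sms-ps, Gm14513, Gm15163, Gm16411 and Rpl3-ps2, none of them called. Gm14513, with 295 and 556 B6 counts and no Cast count on either day, and Rps24-ps3, with 174 and 187 Cast counts and no B6 count, carried no information on a change. The intervals cover counting error only, since reads without molecular identifiers are not independent molecules.

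Of the members called lower, 93 fell by more than 1 on the log2 scale, 12 by more than 2 and 31 by less than 0.5. The members not called had fewer counts, with a median of 156 allele-specific counts per library, against 544 for those called lower. Of the 134 not called, 109 had a 95% interval that reached beyond 0.5 in either direction, 56 of these reaching below -1, a range that includes losses of the size seen in other members. At the count minimum itself, the members just inside were Frmd7 (50 counts on the day with fewer), Ct55, Tro and Mtcp1 (51 each), with changes in the summed log2 ratio of -1.21, 0.74, -1.78 and -0.64. Just outside were Gabre and 5730405O15Rik (49 each) and Gpr173 and F8 (48 each), with changes of -2.95, 0.09, -0.90 and -2.34.

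Within narrow limits of their day 0 ratio on day 4 were 30 genes whose 95% interval lay within 0.5 of 0, 5 of which were called lower. The most deeply counted was Rps4x (chrX:102184941-102189394, minus strand), which encodes a protein of the small ribosomal subunit and had a mean of 29364 allele-specific counts per library. Its B6 share was 43.1%, 44.9% and 40.9% at day 0 but 39.7%, 40.4% and 39.6% at day 4. The replicates came close to each other without overlapping, and the change was -0.18 ± 0.05 (adjusted p = 0.00381 by edgeR). Rps4x had risen by 0.25 by day 1, and against day 1 its change was -0.43 (adjusted p = 4.06e-09). Processed copies of ribosomal protein genes resemble their parent gene, and reads that matched both equally were not counted. Without replicate 2 of day 0, the change was -0.12 and was no longer called. Rbm3, a cold-inducible RNA-binding protein gene, had a B6 share of 58.7% ± 1.04 at day 0 and 54.6% ± 1.21 at day 4 (-0.24 ± 0.06), and Kdm5c one of 50.1% ± 1.61 and 43.9% ± 0.902 (-0.35 ± 0.06). Against day 1, Rbm3 changed by -0.07 and was not called, and Kdm5c changed by -0.35. Utp14a, of ribosomal RNA processing, had a change of -0.20 (95% interval -0.37 to -0.03), Bcap31, of the endoplasmic reticulum, one of -0.16 (-0.31 to -0.01), and Cul4b, a ubiquitin ligase scaffold, one of -0.15 (-0.30 to -0.01), and none of the 3 was called against day 0. Utp14a was called lower with a term for the replicate number (-0.21), and against day 1 all 3 were called, at -0.50, -0.48 and -0.46.

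Among the 25 members not called whose interval lay within 0.5 of 0, estimates lay on both sides of 0. Pir (chrX:164269371-164373011, plus strand), which encodes the iron-binding nuclear protein pirin, had B6 shares of 59.4%, 54.7% and 54.9% at day 0 and of 53.0%, 57.7% and 57.2% at day 4. The libraries of both days overlapped, and the change was -0.01 (95% interval -0.34 to 0.32). Kdm6a had shares of 45.5%, 48.3% and 44.3% at day 0 and 47.8%, 48.2% and 46.9% at day 4, with a change of 0.09 (-0.11 to 0.28). Against day 1, Pir was at -0.10 and Kdm6a at -0.03, neither called, but with the day 0 libraries of TXdXicB6 as the baseline Kdm6a was at -0.30 and called lower (adjusted p = 0.0175 by edgeR). Chosen after their values were seen, Fhl1, a LIM-domain gene of muscle, had a change of 0.04 (-0.27 to 0.36), Stard8, a GTPase-activating gene, one of 0.00 (0.000532, interval -0.29 to 0.29), and Tmem185a one of -0.06 (-0.42 to 0.30). Of these, Fhl1 had risen by 0.95 by day 1 and fell by 0.91 from day 1 to day 4, both called, and Stard8 was at -0.43 and called lower with day 0 of TXdXicB6 as the baseline. In TXdXicB6 the inactivated allele of Pir fell by 1.38, that of Fhl1 by 1.98, that of Stard8 by 1.07 and that of Tmem185a by 2.21 on the log2 scale. Kdm6a had a change of -0.00 (-0.00487, adjusted p = 0.988) in TXdXicB6.

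The smallest decreases that were called, besides Rps4x and Rbm3, were those of Renbp (-0.27 ± 0.10), Ndufb11 (-0.31 ± 0.08), Ftsj1 (-0.32 ± 0.10) and Gpkow (-0.34 ± 0.11), which encode a renin-binding protein, a subunit of respiratory complex I, a transfer RNA methyltransferase and an RNA-binding protein. Renbp, Ftsj1 and Gpkow were not called by DESeq2 (-0.28, -0.30 and -0.33) or when single replicates were left out, Renbp without replicates 2 or 3 of day 0 or of day 4 (-0.27 to -0.22), Ftsj1 without replicate 3 of day 0 or 1 of day 4 (-0.29 and -0.20) and Gpkow without replicate 3 of day 0 or of day 4 (-0.29 and -0.30). Against day 1, Gpkow was at -0.12 and not called. Exons of Ndufb11 overlap those of Rbm10, and without a stated strand setting their reads cannot be told apart.

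The 6 members called higher all began with a low B6 share. Rhox6 (chrX:37826910-37829857, plus strand), a homeobox gene of the multicopy Rhox cluster, had B6 shares of 10.8%, 15.2% and 10.9% at day 0 and of 33.2%, 40.0% and 39.3% at day 4. The groups did not overlap, and its change was 2.10 ± 0.25 (adjusted p = 1.05e-08 by edgeR), over 2 SNPs in its exons. AU015836 went from 17.0% to 26.4% (0.88 ± 0.14), Prps2, a gene of nucleotide synthesis, from 26.5% ± 1.61 to 37.7% ± 0.263 (0.74 ± 0.12), and Amot, the gene of the junction protein angiomotin, from 24.6% to 34.4% (0.65 ± 0.23), a call that was lost without any 1 replicate of day 0 or replicate 1 of day 4 (0.57 to 0.79). The other two were called with fewer counts or with overlapping replicates, Adgrg2, an adhesion receptor gene (12.4% to 30.1%, 1.90 ± 0.47, a mean of 71.0 counts per library), and Ap1s2, of a clathrin adaptor (21.6% to 32.5%, 0.96 ± 0.20, overlapping). All 6 remained at or below 40.1% B6 in every day 4 library.

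In 5 of the 6, the increase was already called on day 1. At day 1 the change from day 0 was 1.44 in Rhox6, 1.30 in AU015836, 1.16 in Prps2, 1.05 in Amot and 3.18 in Adgrg2, all 5 called, and 0.34 in Ap1s2, which was not called. From day 1 to day 4, AU015836 and Prps2 fell, each by 0.42 on the log2 scale. Amot changed by -0.40 and Adgrg2 by -1.28 without passing the test, Rhox6 by 0.66 without passing it, and Ap1s2 rose by 0.62. The direction of 4 of the 6 therefore depends on whether day 0 or day 1 is the baseline, and the part of the degraded day 0 RNA in this was not tested. In TXdXicB6, with its own day 0 libraries, the Cast allele of all 6 fell relative to B6, by between 2.28 and 4.75 on the log2 scale, and in TX1072, which has both Xist alleles, all 6 were called higher on B6, by a median of 1.69. With day 0 of TXdXicB6 as the baseline of TXdXicCast, 6 members were called higher, 5 of them the same genes, and Adgrg2 was at 0.95 and not called.

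Most members called lower on day 4 were first called on day 2 or later. At day 1, 35 members were called lower and 31 higher (background 9.43% and 10.3% of all genes) with a median of 0.04. On day 2 the median was -0.32, with 132 members called lower and 9 higher (12.3% and 12.7%). By day 3 it had reached -0.53, with 183 lower and 7 higher (12.8% and 12.3%). Of the 229 members called lower on day 4, 32 were already called lower on day 1, 92 were first called on day 2, 55 on day 3 and 50 on day 4. The median B6 share of the 229 was 50.9%, 50.4%, 44.0%, 39.3% and 36.2% from day 0 to day 4, and that of the 134 members not called was 46.7%, 49.0%, 45.3%, 42.4% and 42.0%. The median change of the members not called was 0.13 on day 1 and -0.28 on day 4, and that of the called ones -0.03 and -0.86, where the day 4 values follow from the call that made the split.

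Rlim and Nexmif, beside the deleted interval, were among the 35 members already lower on day 1. Rlim (chrX:103957163-103981284, minus strand), which encodes a ubiquitin ligase that promotes Xist expression, has its nearer end 1632 bases from the interval. Its B6 share was 48.4%, 49.2% and 49.1% at day 0, then 35.1%, 17.8% and 29.3% on average on days 1, 2 and 3, and 36.3%, 35.3% and 34.9% at day 4. It was lowest on day 2 and recovered in part, so that its change from day 0 was -0.83 on day 1 and -0.80 on day 4, and day 4 against day 1 was 0.025 (adjusted p = 0.847 by edgeR). Total Rlim rose from 194 to 1292 CPM between days 0 and 4, and on the log2 scale its B6 counts rose by 1.82 and its Cast counts by 2.65. Nexmif, 121903 bases from the interval, fell by 1.20 by day 1 and by a further 0.67 to day 4. Cited1, on the other side at 930076 bases, fell by 0.87 by day 1. Of the 9 members whose nearer end lay within 1025166 bases of the interval, Rps4x had the smallest change at day 4, and Phka1 (-1.06 ± 0.12), of glycogen breakdown, had a day 1 change of -0.28 that was not called.

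Grouped by function, members of every list were called lower, in different numbers. Each list is described by its counts and its median beside those of the 369 members (229 lower, median -0.66), and the lists share some genes. The signalling, pluripotency and differentiation list had 15 of 19 members called lower and a median of -0.84. In it Sox3 and Klhl13 were followed by Gpc4, a glypican (57.4% to 32.7% B6, -1.45 ± 0.09), and by Dusp9, a phosphatase of the MAP kinase pathway (54.8% to 31.0%, -1.43 ± 0.08). Flna, the gene of the actin cross-linker filamin A, fell from 55.7% to 38.1% (-1.03 ± 0.05), while Nr0b1, a nuclear receptor gene of pluripotent cells, was at 62.1% and 66.4% (0.14, not called) and was called higher against day 1 (0.68). In the Armcx, Bex, Tceal and Gprasp cluster, 8 of 12 members were called lower (median -0.85), and they ran from Armcx4 at -2.12 through Armcx1 (-1.56 ± 0.10) and Tceal8 (-1.43 ± 0.07) to Gprasp1 (-0.46 ± 0.08).

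The germline and multicopy list had 6 of 9 members lower and 1 higher, the widest range of all lists, from Tktl1 at -1.94 ± 0.72 to Rhox6 at 2.10. Tktl1 was not called by DESeq2 (-1.94) or without any 1 replicate of day 4 or replicates 2 or 3 of day 0 (-2.26 to -1.67). Only uniquely aligned reads were counted, so for multicopy genes these values rest on the stretches in which the copies differ. Of the RNA binding, splicing and export list, 11 of 13 were called lower (median -0.60), with the splicing factor genes Rbm10 (-1.39 ± 0.47) and Rbmx (-1.29 ± 0.18) at one end and Rbm3 at the other. Rbm10 was not called by DESeq2 (-1.42), or without replicates 1 or 2 of day 0 or 1 or 3 of day 4 (-1.26 to -1.03), or against day 1 (-0.85). Of the translation list, 6 of 7 were called lower (median -0.51), led by Gnl3l, a nucleolar GTPase (52.4% to 36.5%, -0.93 ± 0.06). The exception was Rpl10, a protein of the large ribosomal subunit (69.3% to 69.4%, 0.14, not called), which also has processed copies. Against day 1 Rpl10 was at -0.44 and called lower.

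In the metabolic list, 18 of 24 were called lower and 1, Prps2, higher (median -0.65). Pdha1, of the pyruvate dehydrogenase complex, fell from 69.9% to 49.1% B6 (-1.28 ± 0.06). Pgk1, a glycolysis gene, started at 19.9% and fell to 11.2% (-0.93 ± 0.14), and Hprt, of purine salvage, went from 57.2% to 45.7% (-0.67 ± 0.07). The chromatin list had 16 of 25 lower (median -0.62), from Phf6 (44.9% to 25.2%, -1.17 ± 0.14) to the helicase gene Atrx (48.4% to 38.7%, -0.57 ± 0.06) and Kdm5c, while the histone methyltransferase gene Suv39h1 was at 0.23 ± 0.26, the transcription factor subunit gene Taf1 at -0.00 (-0.00173) ± 0.17 and Ogt, a glycosyltransferase gene, at -0.13 ± 0.08, none of them called, although Ogt was called lower against day 1 (-0.37). The ubiquitin list had 8 of 13 lower (median -0.44). It included Rlim, Klhl13 and Cul4b, described above, and among its other deeply counted members the deubiquitinase gene Usp9x (-0.75 ± 0.05), the ligase gene Huwe1 (-0.66 ± 0.05) and Uba1, of the first step of the pathway (-0.48 ± 0.05). The secretory and vacuolar list had 9 of 18 lower (median -0.44), led by Tspan7 (-1.12 ± 0.38) and Atp6ap2 (-1.11 ± 0.17), a proton pump accessory gene. Tspan7 was not called without replicate 1 or 3 of day 0 (-1.02 and -0.78) or against day 1 (-0.08).

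Known escape genes had the smallest median of the lists, -0.37, with 6 of 11 members called lower. Kdm6a, Pbdc1 (-0.06 ± 0.09), Utp14a, 5530601H04Rik (-0.37 ± 0.22) and Mid1 (0.58 ± 0.33) were not called. Ddx3x, an RNA helicase gene, went from 50.2% to 42.1% B6 (-0.47 ± 0.06), Eif2s3x, of translation initiation, from 30.4% to 23.4% (-0.51 ± 0.08), Shroom4, a cytoskeletal gene, from 58.8% to 44.7% (-0.85 ± 0.15) and 1810030O07Rik from 78.6% to 68.7% (-0.67 ± 0.13). Firre, at -1.78, went furthest below the others. Mid1 turned direction with the baseline, at -1.21 against day 1. In the list of 8 genes followed elsewhere on single SNPs, 6 were called lower (median -0.58), namely Klhl13, Rlim, Hprt, Prdx4 (-0.60 ± 0.12), a peroxidase gene, Atrx and Renbp. Cul4b and Pir were not. That list was chosen by the study with data on its differences between the alleles in hand, and its count is not independent evidence. The 224 members on none of the lists had 130 lower and 4 higher, with a median of -0.67.

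**Figure D4:**
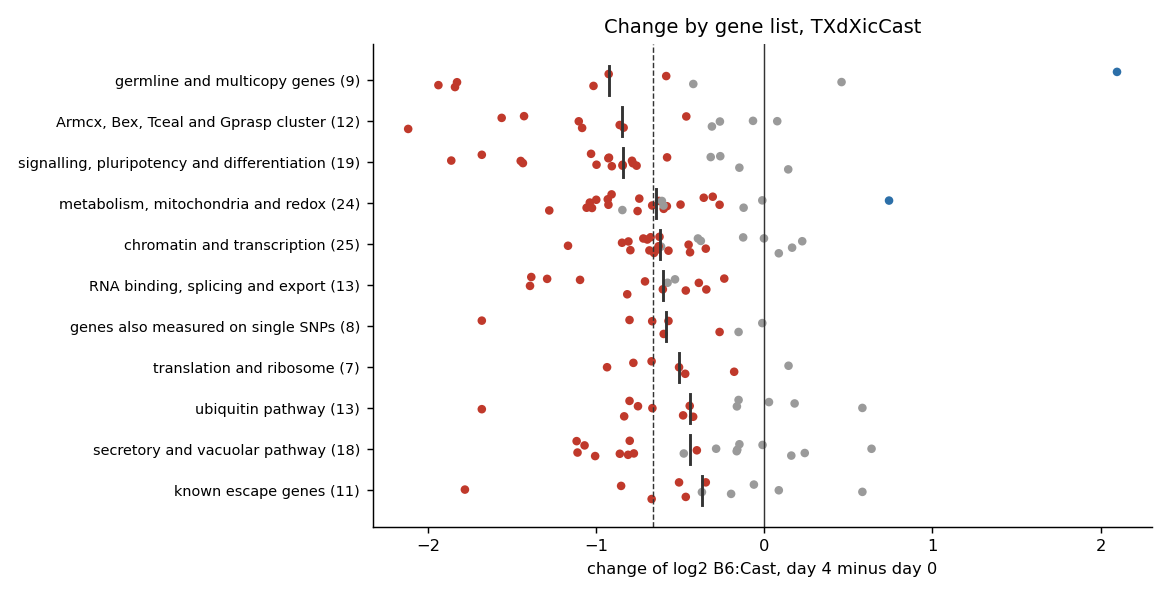
Change of the log2 B6:Cast ratio (day 4 minus day 0, TXdXicCast) of the members of 11 gene lists, with the number of members in brackets. Each point is a gene (red called lower, blue called higher, grey not called), bars are list medians and the dashed line is the median of the 369 members. List medians run from -0.92 (germline and multicopy genes) to -0.37 (known escape genes), and the genes of each list spread widely around them.

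Along the chromosome, the median change was -0.80 for the 65 members within 10 Mb of Xist (46 called lower), -0.55 for the 48 at 10 to 30 Mb (29), -0.72 for the 159 at 30 to 60 Mb (104) and -0.46 for the 97 beyond 60 Mb (50). Members within each of these bins overlapped widely, with quartiles of -1.09 and -0.52 in the nearest bin and of -0.78 and -0.16 in the farthest. The median change went with the share that a gene had on B6 in the day 0 libraries of the other deletion line, which the changes of TXdXicCast do not use. For the 40 members below 40% B6 there it was -0.41 (16 called lower and all 6 of the higher ones), for the 262 between 40% and 60% it was -0.64 (176 lower), and for the 45 above 60% it was -1.01 (27 lower). In undeleted TX1072 the B6:Cast medians of the same bins were 0.23, -0.00 (-0.000818) and -0.46, and the Cast:B6 medians of TXdXicB6, whose own day 0 made the bins, were -1.95, -1.19 and -0.77. By depth, the median was -0.66 for the 67 members under 100 allele-specific counts per library and -0.64 for the 76 over 1000, and 22 and 65 of them were called lower.

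Promoters of the members held more CpG dinucleotides than those of the X chromosome at large. RefSeq promoters (GRCm38.p6, 250 bases before to 50 after the start) were matched for 307 members, and they held a median of 17 CG, against 7 over all 1223 X-linked promoters and 18 for the members called lower and 14.5 for those not called. The motif CG reads the same on both strands, and 92.7% of all X-linked promoters hold at least 1. The median change was -0.53 for the 19 members with fewer than 5 CG and -0.64 for the 58 with 25 or more. Promoters are shown for a gene with a large loss, Klhl13 (56.3% to 28.4% B6), and for one with little change, Kdm6a (46.0% and 47.6%), with each CG in capitals. The first has 15 CG and the second 21, numbers that 26.2% and 14.6% of X-linked promoters reach. The count of CG is a description of these windows.
Klhl13, chrX:23365033-23365332, minus strand: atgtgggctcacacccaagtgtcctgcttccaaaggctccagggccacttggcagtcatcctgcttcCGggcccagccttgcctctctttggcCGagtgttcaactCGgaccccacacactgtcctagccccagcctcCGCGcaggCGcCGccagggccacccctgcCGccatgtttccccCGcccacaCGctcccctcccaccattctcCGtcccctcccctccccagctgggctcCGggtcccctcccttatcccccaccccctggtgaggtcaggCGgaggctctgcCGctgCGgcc
Kdm6a, chrX:18162325-18162624, plus strand: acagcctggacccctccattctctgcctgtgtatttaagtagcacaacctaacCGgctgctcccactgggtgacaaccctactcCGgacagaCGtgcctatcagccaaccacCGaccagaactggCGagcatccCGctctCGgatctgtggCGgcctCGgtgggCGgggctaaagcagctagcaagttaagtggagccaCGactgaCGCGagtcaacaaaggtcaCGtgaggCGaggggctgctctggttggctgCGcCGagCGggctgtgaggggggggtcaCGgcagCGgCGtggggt

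The counts of both alleles moved. Tested one at a time with TMM normalization, the B6 counts of the 229 members called lower were lower in 105 and higher in 44 (median -0.32), and their Cast counts were lower in 51 and higher in 125 of 228 tested (median 0.64). Of all genes tested, 32.8% were lower and 34.9% higher on B6, and 31.6% and 36.2% on Cast. Over all members tested, the median change was -0.20 for 364 B6 alleles and 0.63 for 362 Cast alleles. The autosomal medians were 0.04 and 0.05, with 4312 lower and 4630 higher of 13220 B6 alleles. Flna is an example with high counts, whose B6 counts rose by 1.81 and whose Cast counts rose by 2.86 on the log2 scale while its total level went from 369 to 2139 CPM. In Atrx both fell, by 1.46 and 0.86. For Huwe1 the B6 counts were at -0.06 (adjusted p = 0.676) and the Cast counts rose by 0.63.

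Set beside the Cast chromosome of TXdXicB6, the B6 chromosome of TXdXicCast lost less. In the fit over both lines, which 343 members entered, the median change of the Xi:Xa ratio was -1.20 in TXdXicB6, with 286 called lower and 3 higher (background 12.1% and 9.84% of all genes), against -0.65 in TXdXicCast, with 218 lower and 6 higher. Lower in both lines were 195, in TXdXicCast alone 23, in TXdXicB6 alone 91 and in neither 34. These classes rest on the call in each line and not on a test of the difference. The difference between the lines was tested for each gene by an interaction term. It was called for 67 members that were lower in TXdXicB6 and not called in TXdXicCast. Among the 23, it was called for some, such as Klhl13 and Lrch2, and not for others, such as Tex11 and Pwwp3b. For 153 members the decrease was further in TXdXicB6 and for 17 it was further in TXdXicCast (background over all genes 17.9% and 16.4%), with a median difference of 0.50, where autosomal genes had 0.01. Without replicate 1 of day 0 of TXdXicB6, the library with few allele-specific reads, the numbers were 149 and 16 and the median was 0.52. For autosomal genes, which have no Xi, the term adds the B6:Cast changes of both lines. Their median and the background therefore do not measure differences between the lines. At day 0, 3.79% of the members differed between the lines in their B6:Cast ratio, against 2.38% of autosomal genes. The lines are 1 clone each, so a difference between the parental chromosomes and one between the clones cannot be told apart. The degraded day 0 RNA of TXdXicCast alone also enters the difference, which was not computed against day 1.

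Some of the genes with the largest differences between the lines had a B6:Cast ratio that moved the same way in both. These values include the changes between days 0 and 1 of TXdXicCast, given above for several of the genes. Klhl13 fell by 1.68 on B6 as the Xi of TXdXicCast, and as the Xi of TXdXicB6 its Cast allele rose by 0.99 relative to B6 (difference -2.67 ± 0.10, adjusted p = 1.09e-28 by edgeR). Lrch2 (-4.70 and 1.54) and Tmem47 (-2.03 and 0.67) did likewise, and these 3 were the only members called lower in TXdXicCast and higher in TXdXicB6. For Tmsb4x (-2.58 and -0.70) and Cited1 (-2.03 and -0.55) the change in TXdXicB6 was not called. In the opposite direction, Amot (0.65 in TXdXicCast, -4.61 in TXdXicB6), Rhox6 (2.10 and -2.60), Ap1s2 (0.96 and -2.96), Stk26, a kinase gene (-0.13 and -4.04), and Prps2 (0.74 and -2.74) were all called lower in TXdXicB6, whereas in TXdXicCast 4 of them were called higher and Stk26 was not called.

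**Figure D5:**
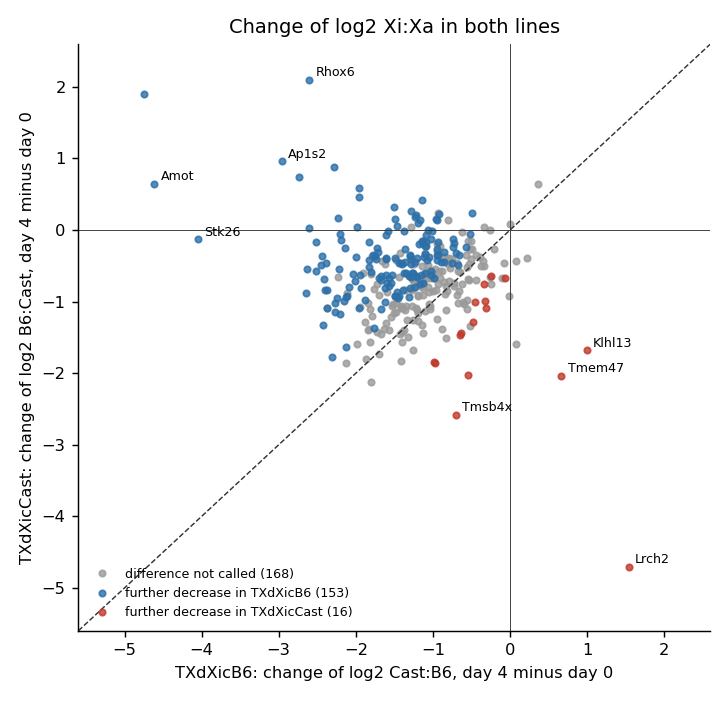
Change of the log2 Xi:Xa ratio (day 4 minus day 0) in TXdXicCast (vertical axis, B6:Cast) against that in TXdXicB6 (horizontal axis, Cast:B6). Each point is a member tested in both lines (few-count members left out), blue if the decrease was further in TXdXicB6 (153), red if further in TXdXicCast (16) and grey if the difference was not called (168), and the dashed diagonal marks equal change. Most points lie above the diagonal, and Lrch2, Tmem47 and Klhl13 lie at the lower right.

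For several genes named above no difference between the lines was called. Flna changed by -1.03 and -1.05 (difference 0.02 ± 0.09, adjusted p = 0.966 by edgeR), Armcx4 by -2.12 and -1.80 (-0.32 ± 0.28, adjusted p = 0.428) and Sox3 by -1.86 and -2.13 (0.25 ± 0.55, adjusted p = 0.779). Usp9x was 1 of the 17 with a further decrease in TXdXicCast (-0.75 and -0.34, adjusted p = 1.56e-05), and Med14, a Mediator subunit gene, was another (-0.64 and -0.25, adjusted p = 0.0316), although not without replicates 1 or 3 of day 0 or 2 of day 4 of TXdXicCast, or 2 or 3 of day 0 or 1 of day 4 of TXdXicB6 (differences of -0.41 to -0.29). Atrx (-0.57 and -1.03), Rlim (-0.80 and -1.23) and Hprt (-0.67 and -1.70) fell further in TXdXicB6. In TX1072, where either X chromosome can be inactivated, the change of the B6:Cast ratio had a median of -0.07 over the 215 members that were called lower in TXdXicCast and tested there. Of these 215, 26 were called lower and 9 higher in TX1072 (background 9.43% and 8.91%). Klhl13 was at -1.36, Lrch2 at -3.84, Tmsb4x at -2.36 and Tmem47 at -1.09 in TX1072, and Maged2 at -0.87 and Armcx4 at -0.98, whereas Flna was at -0.46, Firre at -0.14 (adjusted p = 0.517) and Huwe1 at -0.04 (adjusted p = 0.794). The TX1072 libraries were made with another kit and read length, so these values are given beside the others without a test of the difference.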

How the data were processed

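RNA of TXdXicCast, TXdXicB6 and TX1072 was sequenced with 3 replicates per line and day. The authors aligned read pairs with STAR (2.5.2b) to mm10 masked at the SNPs, assigned alleles with SNPsplit and deposited raw counts of uniquely aligned, exon-overlapping reads (featureCounts), once for all reads and once for either allele. The strand setting is not given in the sources used here. The deposited SNP positions (mm10) were used only to count SNPs in exons, and the single-cell tables were not used.

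The members, lists and tests were chosen with earlier results of these data known. Allele-specific counts of the 15 libraries of a line were fitted with edgeR (4.0.16, R 4.3.3) with a term per library and allele by day, one library size for both alleles, and at least 50 counts on each of days 0 and 4. The change is the fitted log2 coefficient, with its SE and 95% interval. Log ratios by library and total CPM were computed in Python (3.11.15). Genes were placed by symbol or synonym on GENCODE vM21, which left 66 unplaced, and 92 spike-in entries were left out. On simulated counts for 11436 genes, 48 of 50 changes of -2, 24 of 50 of -1 and 4 of 50 of -0.5 were recovered, and 6.48% of the calls were false. For the difference between the lines (10753 genes) these were 44, 4 and 0 of 50, and 5.36% of the calls were false. The simulated counts had the same spread for every gene and few changed genes, unlike the real data. These shares therefore do not give the power of the real fits. A line difference that was not called is not shown to be absent.

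Named genes were the 10 largest decreases and up to 6 largest increases (called, replicates not overlapping, a mean of at least 100 counts), the 6 most deeply counted with an interval within 0.5 of 0, the 6 smallest called decreases, the 5 largest line differences each way, the 8 most deeply counted, and the lists. Per the study's methods the replicates were differentiated on different days, so the replicate numbers pair the samples. Residuals of same-numbered libraries correlated at -0.000432 to 0.0823 between days 0 and 4. Over all pairs of days there were 30 same-numbered library pairs, which correlated at -0.0102 to 0.225. In 25 of these the best match was the library of the same number. Alternatives were DESeq2 (1.42.0), other scalings, count minimums, baselines, a term for the replicate, leaving out each replicate and, chosen after seeing the data, leaving out members with 3 or fewer counts on an allele. P-values measure the spread between cultures of 1 clone.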

Additional observations from a re-analysis of the deposited data

Results flagged for a closer look

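The difference between the lines in the change of the Xi:Xa ratio (TXdXicCast minus TXdXicB6, interaction term, edgeR, adjusted p of at most 0.05) passed for 153 of 343 members with a further decrease in TXdXicB6 and for 17 with a further decrease in TXdXicCast. Over all genes the shares were 17.9% and 16.4%, where autosomal genes have no Xi and the term adds the changes of both lines. The largest on the TXdXicCast side, among members with a mean of at least 100 allele-specific counts per library, were Lrch2 at -6.24 ± 0.51, Tmem47 at -2.70 ± 0.20, Klhl13 at -2.67 ± 0.10, Tmsb4x at -1.89 ± 0.48 and Cited1 at -1.48 ± 0.44 (log2, SE). Without replicate 2 of day 0 of TXdXicB6, Cited1 was at -1.20 and no longer passed. On the TXdXicB6 side, the largest were Amot at 5.26 ± 0.40, Rhox6 at 4.70 ± 0.40, Ap1s2 at 3.92 ± 0.30, Stk26 at 3.91 ± 0.56 and Prps2 at 3.48 ± 0.18. Each line is 1 clone with its deletion on another parental chromosome, and chromosome and clone cannot be told apart. The differences also rest on the degraded day 0 RNA of TXdXicCast and were not computed against day 1.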

How the results depend on the processing

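The number of members called lower ran from 195 (DESeq2) to 241 (a count minimum of 1 on each day) over the alternatives. Leaving out each replicate in turn gave 197 to 221 called lower, 5 to 6 called higher and medians of -0.69 to -0.64, and for the line difference 134 to 152 and 14 to 18 calls and medians of 0.48 to 0.59. With the replicate block, 235 members were called lower and 6 higher. It added the call of Utp14a (-0.21) and changed no other call of a gene named here. Amot (0.65) was not called by DESeq2, or without any 1 of the 3 replicates of day 0 or replicate 1 of day 4 (0.57 to 0.79).

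Against day 1, fewer members were called higher, 3 on day 4, 2 on day 2 and 3 on day 3, and the changes of AU015836 (-0.42), Prps2 (-0.42), Amot (-0.40), Adgrg2 (-1.28), Mid1 (-1.21), Fhl1 (-0.91), Rpl10 (-0.44) and Rlim (0.025) turned direction. Rhox6 (0.66), Rtl8c (-1.05), Mageb16 (-1.18), Rbm10 (-0.85), Gpkow (-0.12), Tspan7 (-0.08) and Rbm3 (-0.07) were then not called. With day 0 of TXdXicB6 as baseline the median was -0.70. Called lower were then 225 members, 195 of them also lower against day 0 of TXdXicCast. Kdm6a (-0.30) and Stard8 (-0.43) turned direction and were called lower. Of the 81 named genes, 6 others gained a call and 3, Adgrg2 among them, lost it. The median over members in place of the summed ratio gave 1.02, 0.802 and 0.677 for days 1, 2 and 3. The causes were not tested. Of the members not called, 109 had intervals reaching beyond 0.5.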
